A study of Mus musculus with 5 samples.

Results

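The genes described here are 7 that are widely read as marks of the monocyte lineage: Csf1r, Ccr2, Ly6c2, Fcer1g, Lyz2, Cd68 and Ctss. They were chosen by name, and all 7 were found among the 27998 genes of each of the 5 deposited tables. Mouse bone marrow gave 5 libraries. The 3 young libraries (replicates 1, 2 and 3) are of mice aged 10 to 12 weeks, and the 2 aged libraries (numbered 2 and 3) are of mice older than 20 months. All mice were of the Nes-GFP strain, in which a Nestin promoter drives a green fluorescent protein. In both age groups cells without CD45 and with CD31 were sorted from endosteal preparations, frozen, thawed and read by droplet sequencing of RNA 3′ ends, and neither group received a treatment named in the labels. The labels do not say how many mice entered a library.

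Monocytes are blood phagocytes that arise in the marrow from progenitors shared with neutrophils. Early neutrophil and monocyte progenitors fill primary granules with proteases and peroxidase, encoded by genes such as Elane and Mpo, and later stages of either branch lose these transcripts. Csf1r is the receptor for the growth factor that maintains monocytes and macrophages, and Ccr2 is the chemokine receptor with which monocytes leave the marrow. Ly6c2 encodes a surface protein that is high on inflammatory monocytes and also present on other marrow cells. Fcer1g is the signalling chain shared by several Fc receptors, on monocytes, basophils and mast cells alike. Lyz2 (lysozyme), Cd68 (a glycoprotein of the lysosome and endosome membrane) and Ctss (cathepsin S) belong to the degradative compartment, and cathepsin S also trims the invariant chain of MHC class II in antigen-presenting cells, B cells included.

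Promoter windows of the members were read from RefSeq (GRCm38.p6), where 6 of the 7 had an entry. Each window is the 250 bases before the annotated start. The letters GAGGAA, the core bound by the myeloid and B-cell factor PU.1, were searched on both strands and stood in 3 of the 6 windows, those of Ly6c2, Cd68 and Ctss. They stand in 23.1% of all 27025 windows. The letters GAAA, then NN, then GAAA, a repeat found in interferon-stimulated elements and also searched on both strands, stood in 1 of the 6 windows, that of Ctss, and stand in 3.04% of all windows. No match of the 2 motifs overlapped another. These 3 windows are shown because they hold the matches and set Ctss, which non-dividing B-lineage cells of every library carried at a similar level, beside Ly6c2 and Cd68, which they did not. They are printed 5′ to 3′ on the gene's strand with the matches in capitals. They lie at chr15:75111972-75112221 on the minus strand (Ly6c2), chr11:69666171-69666420 on the minus strand (Cd68) and chr3:95526536-95526785 on the plus strand (Ctss). A match describes these letters and does not show that a factor binds there.
Ly6c2: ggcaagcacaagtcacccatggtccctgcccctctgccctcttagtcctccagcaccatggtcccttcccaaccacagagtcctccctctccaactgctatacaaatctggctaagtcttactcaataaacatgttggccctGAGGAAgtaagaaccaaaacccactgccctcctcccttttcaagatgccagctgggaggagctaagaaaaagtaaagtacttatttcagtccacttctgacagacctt
Cd68: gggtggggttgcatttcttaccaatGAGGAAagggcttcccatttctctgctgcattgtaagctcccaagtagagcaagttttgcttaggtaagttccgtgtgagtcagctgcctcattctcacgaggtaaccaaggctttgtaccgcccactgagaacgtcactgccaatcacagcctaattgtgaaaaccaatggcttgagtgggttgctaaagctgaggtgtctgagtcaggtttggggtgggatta
Ctss: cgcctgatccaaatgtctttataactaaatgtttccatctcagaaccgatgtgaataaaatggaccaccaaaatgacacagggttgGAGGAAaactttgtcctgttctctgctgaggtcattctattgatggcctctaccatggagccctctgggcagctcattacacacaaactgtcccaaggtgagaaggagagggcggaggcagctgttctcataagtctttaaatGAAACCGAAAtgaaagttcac

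The tables held 3384 barcodes with 935656 to 5900751 unique molecular identifiers (UMIs, 1 per captured RNA molecule) per library, and 2116 cells passed the filter. Of these, 1905 were B-lineage cells (715 dividing, 1190 not), 173 were myeloid-like and 22 were endothelial-like. The remaining 16 formed a sub-cluster led by bone matrix genes and were kept out of the myeloid-like class after its genes were seen. The myeloid-like class holds the other non-B cells not called endothelial-like, and no myeloid marker was required of a cell. Of 21 myeloid marker genes, 11 were detected in at least 10% of its 173 cells. Endothelial-like cells, the usual target of a gate on CD31, were 1 to 9 of the kept cells per library. The CD45 gene Ptprc gave a UMI in 95 of 173 myeloid-like cells, and the CD31 gene Pecam1 gave one in 63. The libraries shared 26 of 3358 distinct barcodes. Young replicate 1 stood apart: it held 161 of the myeloid-like cells, while young replicate 3 had 5, aged replicate 3 had 7 and the libraries numbered 2 had 0.

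In young replicate 1 all 7 genes were present in myeloid-like cells, and 6 of them gave at most 7 UMIs each in non-dividing B-lineage cells of the same library. Levels are given as UMIs per 1000000 (CPM) summed over the cells, with 95% exact Poisson intervals that cover counting error only. Among the receptors, Csf1r stood at 52.8 CPM (43.0 to 64.3, 100 UMIs) and Ccr2 at 55.5 CPM (45.4 to 67.2, 105 UMIs). Ly6c2 stood at 1051 CPM (1006 to 1099, 1990 UMIs). Fcer1g stood at 666 CPM (630 to 704, 1261 UMIs). These 4 genes encode proteins of the cell surface or its receptors, and Fcer1g was the most widely detected of the 7, in 138 of the 161 cells. Of the lysosomal genes, Lyz2 stood at 466 CPM (436 to 498, 882 UMIs). Cd68 stood at 14.8 CPM (9.83 to 21.4, 28 UMIs) and Ctss at 117 CPM (102 to 133, 221 UMIs).

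Shares of cells with a UMI depend on depth, and the median was 10650 UMIs in myeloid-like cells and 2311 and 4163 in non-dividing and dividing B-lineage cells. Fcer1g was detected in 85.7% of the 161 myeloid-like cells (95% exact binomial interval 79.3 to 90.7) and in 2.63% of the 114 non-dividing and 9.64% of the 591 dividing B-lineage cells. After each cell was thinned to 1000 UMIs, the Fcer1g shares were 49.1%, 0.877% and 1.18%. Csf1r was detected in 33.5% of myeloid-like cells, in 0 of 114 non-dividing B-lineage cells, which allows a share of up to 2.63%, and in 0.508% of dividing ones. The thinned Csf1r shares were 4.97%, 0.0% and 0.169%. At this common depth the Fcer1g interval of myeloid-like cells (41.1 to 57.1) lay far above both B-lineage shares, while the Csf1r shares rested on few cells.

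The 161 cells were not uniform. A median of 3 of the 7 genes was detected per cell, 5 cells had none and 10 cells had all 7. Csf1r and Ccr2 were detected together in 37 cells, that is in 67.3% of the 55 cells with Ccr2, while Csf1r was detected in 16.0% of the 106 cells without Ccr2. These shares share their cells and depth and are a description. Lyz2 was the most unevenly spread, since 10 cells held 59.4% of its UMIs and 1 cell held 170. The same 10-cell share was 21.5% for Fcer1g and 24.9% for Ctss, each computed over that gene's own 10 highest cells.

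**Figure D1:**
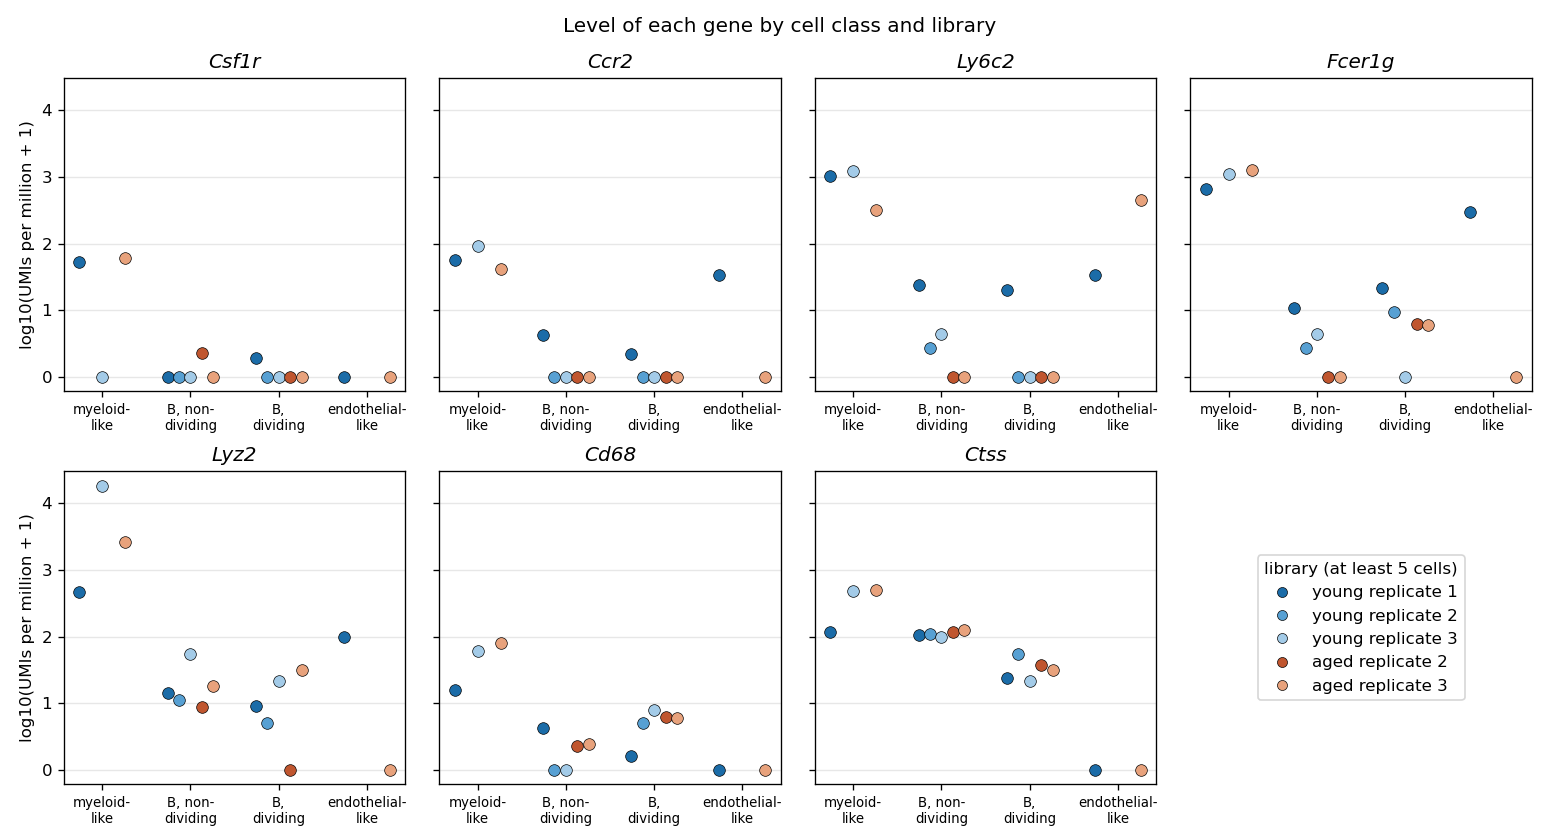
Level of each gene by cell class (x axis) as log10 of CPM plus 1 (y axis), with 1 point per library that held at least 5 cells of the class. Ctss alone kept a similar level in non-dividing B-lineage cells of all 5 libraries (98.4 to 125 CPM), while Lyz2 in myeloid-like cells ran from 466 to 18485 CPM.

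The other 2 libraries with myeloid-like cells held too few for a stable level. In young replicate 3 Lyz2 reached 605 UMIs in 5 cells, or 18485 CPM, and 310 of these came from 1 cell with 0 UMIs of Elane and Mpo and with Ccr2, Cd68 and Ctss present. The 2 other Lyz2-positive cells of that library had 138 and 157 UMIs of Lyz2, and 2402 and 2846 UMIs of the neutrophil genes S100a8 and S100a9. In aged replicate 3 the 7 cells held 131 UMIs of Lyz2, with 82 in 1 cell that had 2139 UMIs of S100a8 and S100a9. The highest Lyz2 counts of these libraries thus lay in cells of 2 kinds, with and without S100a8 and S100a9. Csf1r gave 0 UMIs in young replicate 3 and 3 UMIs in aged replicate 3. Haemoglobin and other erythroid genes of the marker list gave 26245 and 34345 CPM in the myeloid-like cells of these 2 libraries, against 26.9 CPM in young replicate 1. These erythroid UMIs lay in 2 of the 5 and 3 of the 7 cells, against 13 of 161 in young replicate 1. Their part in the levels was not tested. No member gave a UMI in 1 of the 5 cells of young replicate 3 and in 2 of the 7 of aged replicate 3.

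Myeloid-like and non-dividing B-lineage cells were compared within the 3 libraries that held both, with edgeR's quasi-likelihood test on summed counts and the library as a term. Of 5023 genes tested, 8.12% were called higher and 10.1% lower in myeloid-like cells at an adjusted p under 0.05 (18.2% in all). Of the members, 5 passed the filter on low counts and 2, Csf1r and Cd68, did not. A member could pass through its myeloid-like level alone, so the 5 calls are values and not a count in support. Fcer1g was higher by 8.41 ± 0.55 (log2 fold change ± SE, adjusted p = 4.63e-48). Lyz2 was higher by 7.66 ± 0.58 (adjusted p = 3.97e-37) and Ly6c2 by 7.24 ± 0.52 (adjusted p = 7.59e-41). The small p of Lyz2 does not measure its own spread, since its myeloid-like level ran from 466 to 18485 CPM over the 3 libraries. Ccr2 was higher by 6.17 ± 1.11 (adjusted p = 8.40e-07). Ctss had by far the smallest difference, 1.70 ± 0.41 (adjusted p = 0.000455). With all genes tested, Csf1r differed by 7.30 ± 1.55 (adjusted p = 0.000161) and Cd68 by 4.90 ± 1.18 (adjusted p = 0.0014).

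The Ctss call rested on single libraries. Its log2 fold change was 1.24 without young replicate 3 (adjusted p = 0.0633), 1.30 without aged replicate 3 (adjusted p = 0.177) and 2.45 without young replicate 1 (adjusted p = 5.91e-07). It was also lost with no filter on low counts (1.51, adjusted p = 0.0822) and with classes drawn from marker UMIs in every barcode (1.22, adjusted p = 0.214). The calls of Fcer1g, Ly6c2 and Lyz2 held in all 12 alternative fits, with log2 fold changes of 6.35 to 9.57, 6.15 to 8.88 and 6.28 to 8.23. The fit that asked for at least 1 myeloid-like cell per library used the same cells as the reported fit and could not differ. The fits without doublets, with at least 800 genes and 1500 UMIs and with marker classes also lacked young replicate 3. Single libraries still moved the size of the Fcer1g, Ly6c2 and Lyz2 differences. Without young replicate 1 the values were 9.57 (Fcer1g) and 8.88 (Ly6c2), without young replicate 3 they were 6.49 (Ly6c2) and 6.74 (Lyz2), and without aged replicate 3 the Fcer1g value was 7.29. Ccr2 held its call in the 10 alternative fits that tested it (5.12 to 6.42), the fit on the same cells among them. Its value was 5.18 without young replicate 3, and it had no test without young replicate 1. Of the 47 other monocyte and macrophage genes, 23 were tested, 18 rose and 5 did not pass, with a median log2 fold change of 2.27 against -0.18 over all genes. These genes too could pass the filter through their myeloid-like level alone, so the count and median describe the 23 and support nothing. The 3 of smallest p were Lgals3, a galectin (6.68 ± 0.50, adjusted p = 1.63e-37), Tyrobp, a signalling adaptor like Fcer1g (5.51 ± 0.44, adjusted p = 1.12e-33), and Cd14, a receptor for bacterial lipopolysaccharide (9.59 ± 0.79, adjusted p = 2.03e-31).

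**Figure D2:**
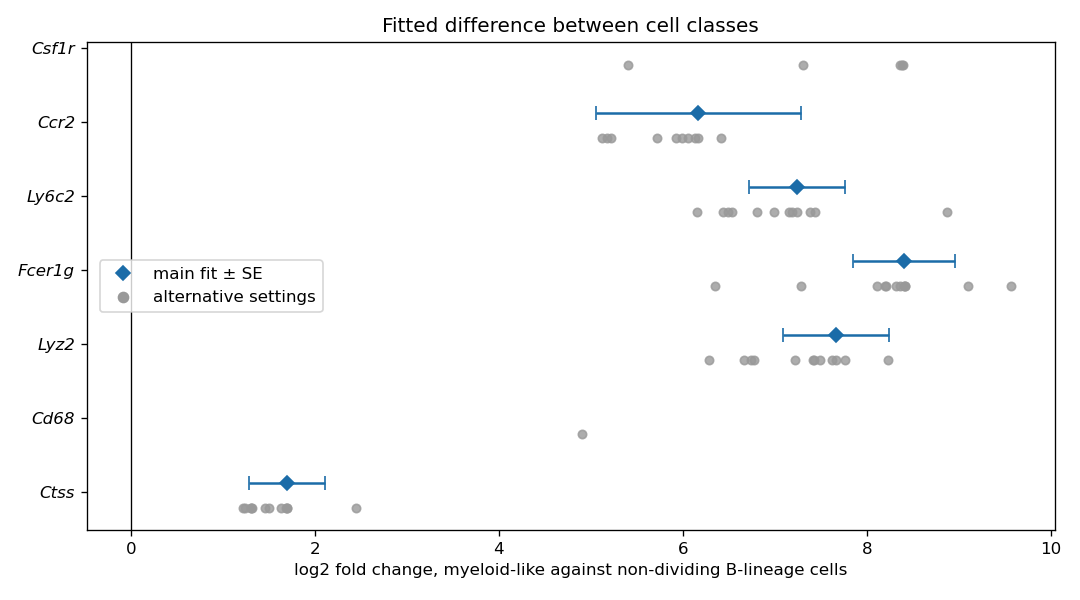
Log2 fold change of each gene in myeloid-like against non-dividing B-lineage cells (x axis), with diamonds and bars for the value reported in the text ± SE and grey points for the alternative settings. Csf1r and Cd68 have no diamond because they did not pass the filter on low counts, and every Ctss value lies between 1.22 and 2.45.

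The myeloid-like cells were then sub-clustered without the 7 members and the 47 other monocyte genes, which gave 8 sub-clusters, called M1 to M8 by size (the names do not refer to macrophage states). Values are those of young replicate 1, with no replicate of a sub-cluster elsewhere. M1, with 31 cells led by Lgals3, S100a4 and Ms4a6c, had the highest level of 6 of the 7 genes, though for Fcer1g and Cd68 its interval overlapped that of M6. Csf1r or Ccr2 was also detected in 8 of 16 cells of M6 and 8 of 12 cells of M8. M1 is therefore not claimed to stand clear of M6 and M8 in these 2 genes. In M1 Csf1r stood at 120 CPM (87.7 to 160), Ccr2 at 151 CPM (115 to 195) and Cd68 at 31.3 CPM (16.2 to 54.6). Ly6c2 stood at 2183 CPM (2038 to 2336), Fcer1g at 1347 CPM (1233 to 1468) and Lyz2 at 1381 CPM (1266 to 1504). In M1 29 of 31 cells had at least 5 of the 7 genes, with a median of 12164 UMIs per cell. Cells of M1 were not free of the granule genes, since 30 of 31 had a UMI of Elane or Mpo and 23 had 10 or more.

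M6, with 16 cells, was led by Gcnt2, Cd7, Cst3, Aif1, Lgals3, Bst2, Tyrobp, Siglech, Itgb7 and S100a4. Siglech is a plasmacytoid dendritic cell gene, while Cst3, Aif1, Lgals3, Tyrobp and S100a4 are among the other monocyte and macrophage genes. M6 had the highest level of Ctss. Ctss stood at 334 CPM (234 to 462) there against 214 CPM (170 to 265) in M1, and these intervals overlap. Fcer1g in M6 stood at 1308 CPM (1101 to 1543), also overlapping M1, whereas Lyz2 stood at 111 CPM (57.5 to 194), far below M1. Compared with the other myeloid-like cells, M6 was led by the MHC class II genes H2-Aa, H2-Eb1 and H2-Ab1 and by Cd74, the invariant chain.

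The 14 cells of M7, led by S100a8, S100a9, Camp and Ngp and neutrophil-like by these genes, carried part of the set only. Ly6c2 stood at 1633 CPM (1479 to 1798) and Lyz2 at 746 CPM (643 to 860). Csf1r and Ccr2 gave 0 UMIs in M7, which allows up to 11.8 CPM each at 3 counts, and Ctss gave 1 UMI. M4, with 21 cells led by Elane, Mpo and Ms4a3, had Ly6c2 at 866 CPM (772 to 968) with Ctss at 22.4 CPM (9.65 to 44.0). M3, with 22 basophil-like cells led by Prss34, Mcpt8 and Cpa3, had Fcer1g at 411 CPM (321 to 520), 3 UMIs of Ly6c2 and 0 of Csf1r. Ly6c2, Lyz2 and Fcer1g were therefore present in sub-clusters where Csf1r gave no UMI.

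Of the remaining sub-clusters, M2 (25 cells, led by Cxcl2, Ccl3 and Ccl4) had Csf1r and Ccr2 at 62.6 CPM each and Ctss at 167 CPM. M8, with 12 cells led by F13a1, Emb and Ms4a6c and marked among myeloid-like cells by genes of division, had Csf1r at 71.0 CPM and Ctss at 138 CPM. M5 (20 cells, led by Il1r2, Nr4a1 and Flt3) had Ctss at 136 CPM with 1 UMI of Ly6c2.

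**Figure D3:**
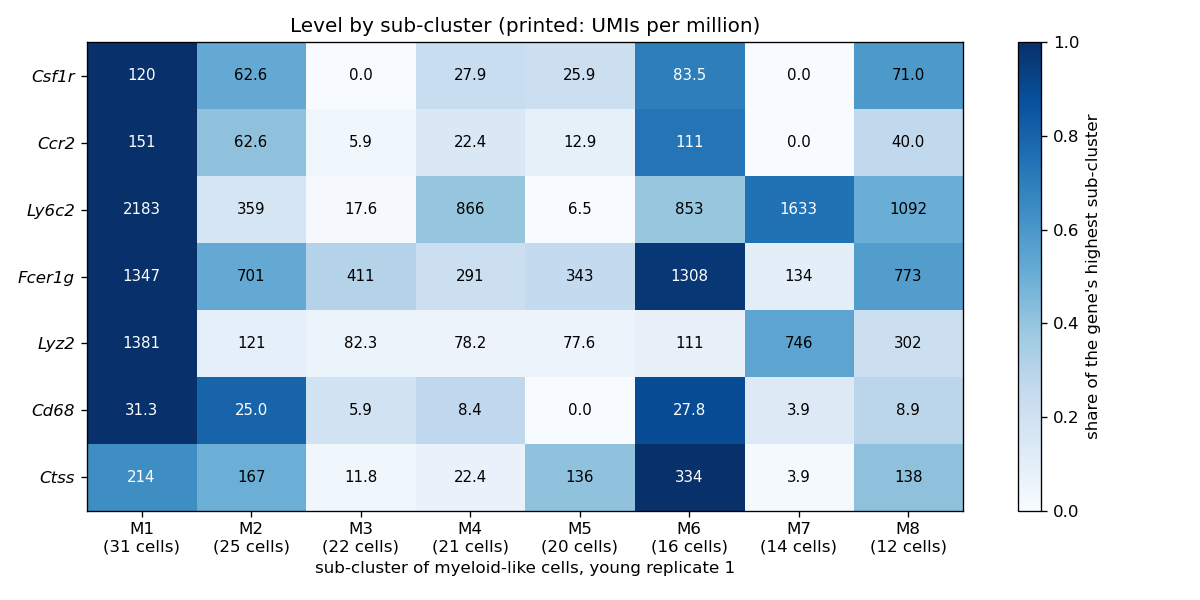
Level of each gene (rows) in the 8 sub-clusters of myeloid-like cells of young replicate 1 (columns), with UMIs per 1000000 printed and the shade giving the share of the gene's highest sub-cluster. Csf1r and Ccr2 are darkest in M1 and M6 and at 0 in M7, where Ly6c2 and Lyz2 are high.

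Splitting the myeloid-like cells by Elane and Mpo gave 144 cells with and 17 without a UMI in young replicate 1, 2 and 3 in young replicate 3, and 2 and 5 in aged replicate 3. Only young replicate 1 held 5 of each, so no test was possible and differences are ratios with exact counting intervals. The split also compared different sub-clusters: of the 17 cells without, 6 were in M3, 5 in M6, 4 in M5, 1 in M1 and 1 in M2, so that M6, with the highest Ctss, and M3 and M5, with 3 and 1 UMIs of Ly6c2, made up most of them. The medians were 11556 UMIs in cells with and 3497 in cells without these transcripts. Over the 6812 genes with at least 20 UMIs, 16.3% were at least 2-fold higher and 19.3% at least 2-fold lower in cells with Elane or Mpo, 35.7% in all. Of the 7 members, 4 were at least 2-fold higher and 1 was at least 2-fold lower, on few UMIs in some cases. Ctss stood at 108 CPM in cells with and 336 CPM in cells without, a ratio of 0.322 (0.210 to 0.515). Ly6c2 stood at 1075 and 448 CPM, a ratio of 2.40 (1.70 to 3.52), and Lyz2 at 479 and 140 CPM, a ratio of 3.42 (1.85 to 7.16). Fcer1g stood at 657 and 909 CPM, a ratio of 0.722 (0.563 to 0.942). For Csf1r the ratio was 3.89 (0.682 to 155), for Ccr2 2.02 (0.546 to 16.9) and for Cd68 1.06 (0.175 to 43.4), on 1, 2 and 1 UMIs in the cells without, so that no difference was detectable at this depth.

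A single UMI of Elane or Mpo was not specific in this library, because 311 of its 705 B-lineage cells (44.1%, 40.4 to 47.9) had one at a median of 3733 UMIs, with at most 4 in a cell. In the other 4 libraries the share was 0.0% to 3.11%. Cells were therefore also taken in 3 bands, chosen after seeing the data: 0, 1 to 9 and 10 or more UMIs of the pair, with 17, 60 and 84 cells. The middle band was mostly M5 (16 cells), M2 (12), M6 (11) and M3 (9), and the last mostly M1 (23), M4 (20), M7 (13) and M2 (12), so the bands differ in sub-cluster, and change within a sub-cluster was not tested. Ctss stood at 336, 177 and 85.1 CPM in this order, and the last 2 intervals (141 to 220 and 70.3 to 102) did not overlap. Ly6c2 stood at 448, 500 and 1268 CPM, with the step between the last 2 bands (438 to 570 against 1209 to 1329). Lyz2 stood at 140, 723 and 397 CPM, so it had no single direction, and its ratio became 0.463 (0.402 to 0.534) when cells with 5 or more UMIs were set against the rest. Csf1r stood at 14.0, 45.9 and 57.2 CPM, with overlapping intervals (0.354 to 77.9, 28.4 to 70.1 and 45.2 to 71.4). Among 33 other monocyte genes with at least 20 UMIs, 7 were at least 2-fold higher and 9 at least 2-fold lower in cells with Elane or Mpo, with a median log2 ratio of -0.19 against -0.09 over all genes.

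**Figure D4:**
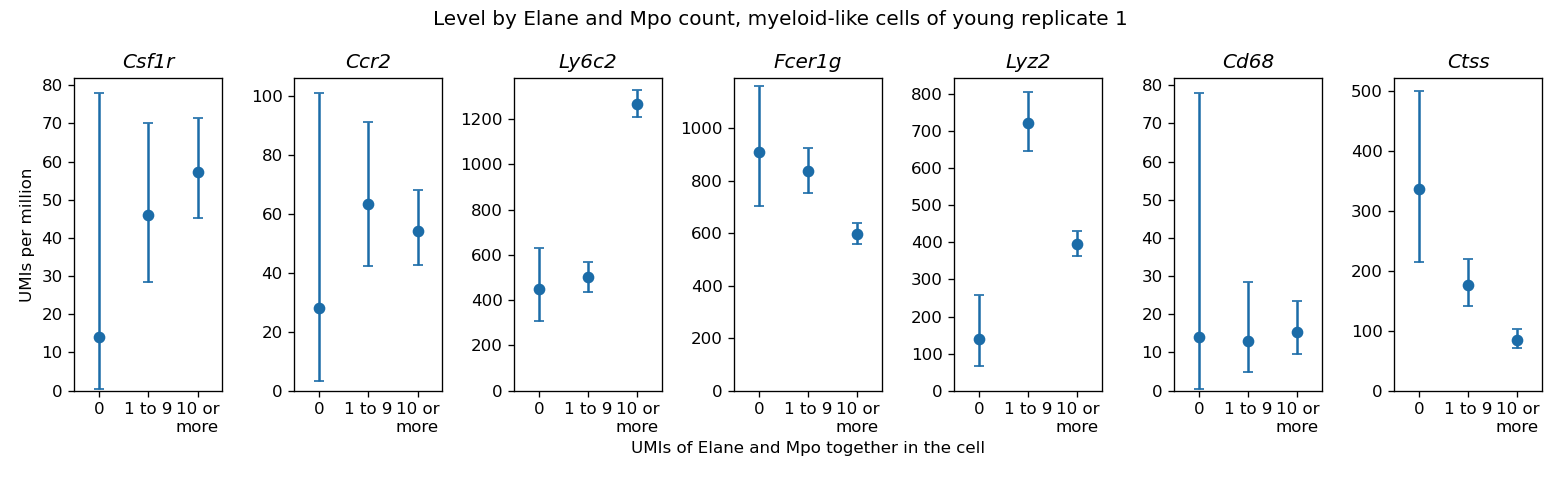
Level of each gene (y axis, UMIs per 1000000 from 0, with exact 95% Poisson intervals) in myeloid-like cells of young replicate 1 with 0, 1 to 9 and 10 or more UMIs of Elane and Mpo (x axis). Ctss runs from 336 to 85.1 CPM across the bands, which hold different sub-clusters, and Ly6c2 stands at 1268 CPM in the last band. The Lyz2 level is highest in the middle band, at 723 CPM, although a smaller share of cells had a UMI there than in the last band.

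B-lineage levels were next set against myeloid-like levels. In young replicate 1 the summed level of Elane and Mpo in non-dividing and dividing B-lineage cells was 2.22% and 2.01% of that in its myeloid-like cells. Ly6c2 lay at 2.23% and 1.84%, Lyz2 at 2.88% and 1.78% and Fcer1g at 1.51% and 3.14% of their myeloid-like levels, near the granule genes. Csf1r lay at 0.0% and 1.74%. Ccr2 lay at 6.04% and 2.22% and Cd68 at 22.7% and 4.15%, on 1 UMI each in non-dividing cells. Ctss lay at 89.0% and 20.0%. In young and aged replicate 2, which held 0 myeloid-like cells, Ctss still stood at 108 and 117 CPM in non-dividing B-lineage cells, while Csf1r and Ccr2 together gave 1 UMI. Lyz2 was highest among these cells in young replicate 3, with 31 UMIs and 54.5 CPM, against 7.88 to 17.2 CPM in the other 4 libraries.

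Ctss was lower in dividing than in non-dividing B-lineage cells in all 5 libraries. Non-dividing cells had 104, 108 and 98.4 CPM in young replicates 1, 2 and 3 and 117 and 125 CPM in aged replicates 2 and 3. Dividing cells had 23.3, 54.4, 21.0, 37.0 and 30.6 CPM in the same order, and the 2 ranges did not overlap. The mean was 110 ± 10.4 CPM (SD, n = 5) in non-dividing and 33.3 ± 13.4 CPM (SD, n = 5) in dividing cells. With edgeR and the library as a term Ctss fell by 1.69 ± 0.22 on the log2 scale (adjusted p = 3.94e-07), and it was the only member that passed the filter on low counts. This contrast called 24.3% of 5208 genes lower and 26.3% higher (50.6% in all), so a call is common there. Among the 12 other monocyte genes tested, 7 fell and 1 rose. Psap, a lysosomal saposin precursor, fell by 0.68 ± 0.12 (adjusted p = 2.41e-05), the protease gene Ctsb fell by 0.95 ± 0.19 (adjusted p = 0.000185) and the transcription factor gene Irf8 fell by 0.47 ± 0.13 (adjusted p = 0.00329), all on the log2 scale. Plac8 rose by 0.34 ± 0.10 (adjusted p = 0.0061).

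Within the non-dividing cells the highest Ctss level lay in cluster B9, 84 cells led by Ms4a1, Cd74 and Fcmr, with 227 CPM (167 to 302). It stood at 188, 189, 201 and 475 CPM in the 4 libraries with at least 10 such cells (young replicates 1, 2 and 3 and aged replicate 3), on 4 to 16 UMIs each. Clusters rest on genes other than Ctss, but the cluster was singled out after its value was seen. A split by the MHC class II genes H2-Aa, H2-Ab1 and H2-Eb1 gave no such difference. Cells with at least 2 UMIs of these genes had Ctss at 99.4, 100, 66.9, 77.5 and 138 CPM in young replicates 1, 2 and 3 and aged replicates 2 and 3, and cells with none had 134, 105, 109, 125 and 119 CPM. The log2 fold change was -0.29 ± 0.21 (edgeR adjusted p = 0.484), where 2.35% of 2297 genes were called higher and 3.05% lower, 5.4% in all (54 and 70 genes, against 25 and 13 with DESeq2). The value was lower in positive cells in 4 of 5 libraries and higher in aged replicate 3. Of 6 other monocyte genes tested there, Plac8 alone passed (0.53 ± 0.12, adjusted p = 0.00946).

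**Figure D5:**
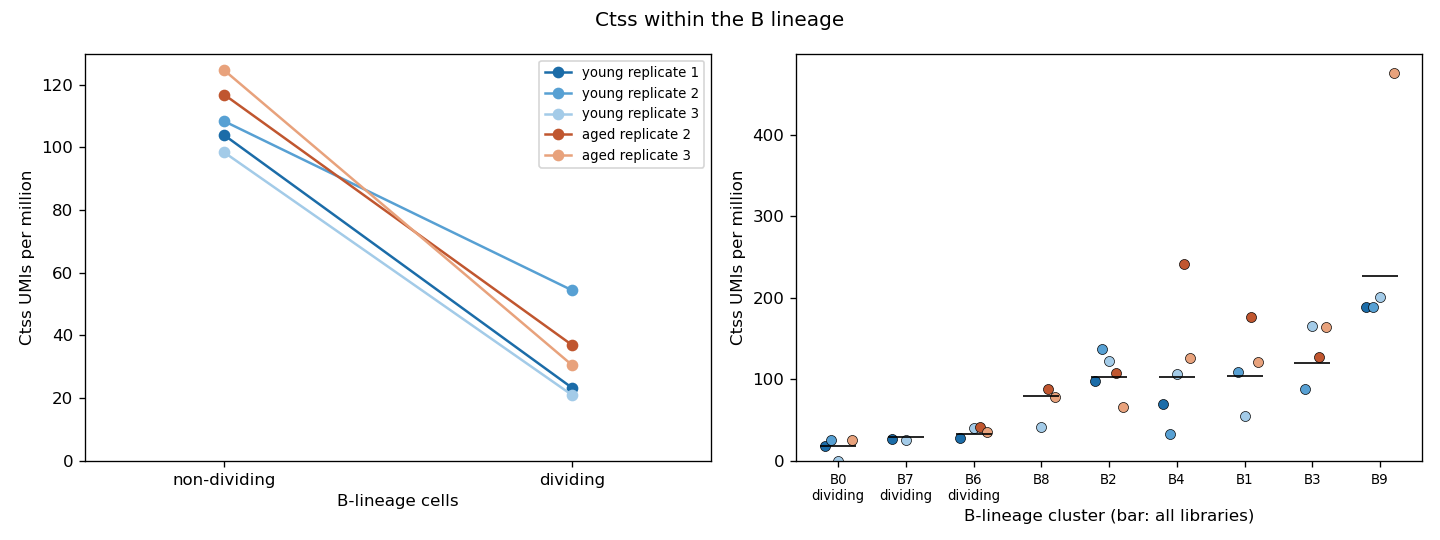
Ctss in UMIs per 1000000 (y axes, from 0) in non-dividing and dividing B-lineage cells, with a line per library (left), and by B-lineage cluster with a point per library of at least 10 cells and a bar for all libraries together (right). All 5 lines fall, and cluster B9 has the highest bar at 227 CPM.

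Age could be compared only in B-lineage cells. In non-dividing cells Ctss differed by 0.16 ± 0.26 on the log2 scale, aged against young, and did not pass (edgeR adjusted p = 1.00). In this fit 0 of 6425 genes passed with edgeR (0.0% called), with 114 at an unadjusted p under 0.05, and 0 passed with DESeq2. Both aged libraries lay above all 3 young ones in Ctss, 117 and 125 CPM against 98.4 to 108 CPM. A two-sided exact permutation test of the library values gave p = 0.1, the smallest that 3 against 2 libraries allow. Between the libraries numbered 2 the step was from 108 CPM (young) to 117 CPM (aged), and between those numbered 3 from 98.4 to 125 CPM. The other 6 members did not pass the filter on low counts in this fit. Lyz2 passed it in 7 alternative fits, with log2 fold changes of -1.89 to -0.69, and was called in none (unadjusted p = 0.0204 without young replicate 2, edgeR adjusted p = 0.999). With no filter, Lyz2 had -1.19 ± 0.50 (edgeR unadjusted p = 0.0174, adjusted p = 0.996). Ly6c2 had an unadjusted p of 0.0017 and an adjusted p of 0.650 in that edgeR fit, and its fold is not given because both aged libraries were at 0. Ly6c2 and Fcer1g gave 0 UMIs in the non-dividing cells of both aged libraries, and at most 7 and 3 UMIs in any young one.

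Endothelial-like cells gave 0 UMIs of Csf1r, Cd68 and Ctss in 22 cells. Of the 9 such cells of young replicate 1, 6 had no UMI of any member and 3 had at least 1, so counts there lay in few cells. Fcer1g gave 9 UMIs in young replicate 1, at 44.3% of the myeloid-like level there, and 2 in young replicate 2. Lyz2 gave 3 and 1 UMIs in these 2 libraries, and Ccr2 gave 1 UMI in young replicate 1. Ly6c2 gave 1 and 3 UMIs in young replicates 1 and 2. In aged replicate 3 it gave 8 UMIs in 7 of 8 such cells, at 140% of the myeloid-like level there, which rests on 16 UMIs. Ly6c1, a near-identical neighbour of Ly6c2 and an endothelial gene, gave 92 UMIs in the same 8 cells, and reads of the pair may be split uncertainly. In myeloid-like cells of young replicate 1 the pair stood at 1990 UMIs of Ly6c2 and 31 of Ly6c1. The same holds for Lyz2 and its copy Lyz1, with 882 and 8 UMIs there and 605 and 45 in young replicate 3.

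The genes most like each member were taken over 28 sums of library and cluster with at least 20 cells, 5 of them myeloid-like and all of these from young replicate 1. The myeloid-like sums were M1 to M5, so M6, M7 and M8 did not enter. The values are correlations of log2(CPM + 10) over sums that share libraries and depth, and they are a description. Over these sums the mean level was 3.56 CPM for Cd68, 8.57 CPM for Csf1r and 9.82 CPM for Ccr2. These means lie below the 10 CPM added before the log, so the ranks of these genes are weak. Csf1r was most like the chemokine Cxcl2 (r = 0.92), Ms4a6c (0.92) and Slpi (0.89), and Ccr2 was most like Ly6c2 (0.91), Cxcl2 (0.89) and Ms4a6c (0.88). Ly6c2 was most like Elane (0.90), Prtn3 (0.89) and Cxcl2 (0.88). Fcer1g was most like Ccl9 (0.97), Gsr (0.95) and Slpi (0.94), and Lyz2 was most like Emb (0.86), Anxa2 (0.84) and Ifitm3 (0.84). Cd68 was most like Cxcl2 (0.83), F13a1 (0.81) and Ly6c2 (0.77). Ctss was most like Cd52 (0.77), Psap (0.72) and Arpc2 (0.71). Over the 23 B-lineage sums alone the same 3 Ctss values were 0.72, 0.59 and 0.78, while Csf1r and Cxcl2 had -0.05. Other pairs kept high values there, with 0.86 for Ly6c2 and Elane, 0.74 for Fcer1g and Gsr, 0.73 for Lyz2 and Emb and 0.67 for Ccr2 and Ly6c2. In B-lineage cells Ccr2 gave UMIs in young replicate 1 only, 1 in non-dividing and 4 in dividing cells. Ly6c2 gave 7 and 63 there and Fcer1g 3 and 68, with at most 2 in either class of another library. Elane and Mpo gave 40 and 394 there and at most 6 in another library. The Ly6c2, Fcer1g and Ccr2 values thus largely set young replicate 1 against the other libraries.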

How the data were processed

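The deposited values were raw UMI counts per gene and barcode, 1 table per library. Cell Ranger and the build mm10 are named, per the submitters' processing notes, as are edgeR 3.24.3, DESeq2 1.22.2 and R 3.5.2, with no role given. How the barcodes were selected, and which Cell Ranger version, is not given in the sources used here. Symbols were matched for 27645 of 27998 identifiers.

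The members, gene lists and tests were chosen with earlier results of these data known. Barcodes entered with at least 500 genes, at least 1000 UMIs and at most 10% mitochondrial UMIs. Cells were clustered (scanpy 1.11.5, leidenalg 0.10.2, resolution 0.8) without the members and the 47 other monocyte genes, and the non-B clusters were clustered again at 0.5 and 1.0. B-lineage, dividing and endothelial-like classes were named from marker lists. The myeloid-like class is the remainder, low in B-lineage genes and not called endothelial-like, with no myeloid marker required. Scrublet called 58 of the kept cells doublets, 2 of them myeloid-like; they stayed in and were left out as an alternative. Since a cell is no replicate, sums of counts over each class within a library were tested with edgeR 4.0.16 (TMM, filterByExpr, quasi-likelihood, Benjamini-Hochberg over all genes, threshold 0.05); an SE is the fold change divided by the square root of F. DESeq2 1.42.0, scaling, filters, doublets, resolution, the replicate number as a block and each library left out were alternatives. The procedure was tested on simulated data without a library effect, with changes of 2 on the log2 scale. It recovered 69% of these for myeloid-like cells, 99.5% for dividing cells, 100% for MHC class II and 86% for age. The false shares of the calls were 2.13%, 2.93%, 4.31% and 8.02% in this order, the last above the threshold of 0.05. Intervals are exact at 95%, a count of 0 is bounded by 3 counts, and thinning used 1000 UMIs per cell. PCR copies were collapsed by UMI, and intervals cover counting error only. Nothing in the labels says that replicates are separate animals, so p-values refer to libraries. In the fits with the library as a term they set the class difference against its variation between libraries, estimated with information shared over all genes. With so few libraries a very small p does not measure a gene's own spread between libraries. For age they set the difference against the spread of levels between libraries, shared over genes in the same way. Positions are on GRCm38.

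Named genes were the 7 members, up to 3 other monocyte genes of smallest p per direction in each comparison, and the 3 genes most correlated with each member (mean of at least 20 CPM).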

Additional observations from a re-analysis of the deposited data

Results flagged for a closer look

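The 1268 barcodes below the cell filter entered no comparison, and each member gave more UMIs there than the 3 that a count of 0 allows. Csf1r gave 11 UMIs, Ccr2 16, Ly6c2 74, Fcer1g 55, Lyz2 104, Cd68 5 and Ctss 96. Lyz2 gave 57 of its 104 UMIs in 7 barcodes of aged replicate 3. Ly6c2 gave 64 of its 74 UMIs in young replicate 1, the library with most myeloid-like cells. Ctss stood at 86.8 CPM in these barcodes. Which cells these barcodes were was not tested.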

How the results depend on the processing

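Across 241 alternative values, few members could be tested (5, 1, 1 and 1 in the 4 fits reported), so counts of members called say little. In myeloid-like cells Ctss lost its call with no filter, where Csf1r and Cd68 entered, and with marker classes, where Csf1r entered and Ccr2 was not tested. For MHC class II, 124 genes passed (54 higher), against 38 with DESeq2 (25 higher), 211 with no filter on low counts (58 higher) and 57 to 139 with 1 library left out (57 without young replicate 3 and 61 without aged replicate 3). For myeloid-like cells 914 passed, against 458 (without young replicate 1) to 899 with 1 library left out and 556 without aged replicate 3. Of the 914, 408 were higher (44.6%), against 340 of 1110 (30.6%) when total counts set the scale. For age 0 passed, against 9 with no filter and 28 in the fit with a replicate block (its number as a term), where Ctss had a log2 fold change of 0.18. Number 2 and number 3 are the only shared numbers, and no label says that they pair libraries. Deviations of same-numbered libraries had r = 0.26 and 0.17 over 6425 genes. The 2 aged libraries deviate from their own mean by mirrored amounts, so these 2 values are not separate and cannot show pairing. Of the members, 5 were at least 2-fold apart between cells with and without Elane or Mpo, against 1 with at least 2 UMIs of the pair required, 2 of 4 with enough UMIs after thinning and, chosen after seeing the data, 3 with at least 5 UMIs. The share over all genes fell too, from 35.7% to 22.3%, 14.1% and 18.1%. Under these 3 rules the Ccr2 log2 ratio, 1.02 at first, was -0.077, -2.15 (on 8 UMIs) and -0.60, with every interval spanning 0, so no direction was shown. The Lyz2 log2 ratio, 1.78 at first, was 0.85 and then reversed to -1.10 and -1.11, with 59.4% of the Lyz2 UMIs in 10 cells. Ctss kept its direction in all 7 alternatives (-2.15 to -0.97), as did Ly6c2 (0.86 to 1.53) and Fcer1g (-0.62 to -0.27). The Fcer1g difference was not resolved under every rule. Its ratio was 0.826 (0.633 to 1.10) with cells of 2 or more basophil and mast cell genes left out. With a UMI of any of the 6 primary granule genes as the rule it was 0.796 (0.555 to 1.18), and both intervals spanned 1. Leaving out young replicate 1 gives no value for that split, and leaving out another library does not change it. DESeq2 gave no adjusted p for Ctss in the MHC class II fit. The causes were not tested. Depth limits Csf1r, Ccr2 and Cd68 in cells without Elane or Mpo, which held 1 or 2 UMIs of each.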
